A study of Mus musculus with 12 samples.

Results

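The transcriptional response of Cebpd sgRNA2 cells to interferon gamma (IFN-gamma) was measured in 4 of the 12 RNA-seq libraries of the series: 2 libraries of vehicle-treated cells and 2 of cells given IFN-gamma at 20 ng/ml for 24 h. The libraries were chosen by their column names alone, and every gene of the line was examined without pooling it with the other Cebpd guide. The cells are 4T1, a mouse mammary carcinoma line of BALB/c origin that grows as adherent epithelial cells. The sgRNA2 line and a separate line made with sgRNA1 carry the genotype label Cebpd knockout, and the control line carries an sgRNA against Rosa26, a locus commonly used as a neutral target. Control and sgRNA1 cells also gave 2 vehicle and 2 IFN-gamma libraries each. The labels do not say whether a line is 1 clone or a pool of edited cells, nor whether the 2 libraries of a group stem from different cultures. The p-values therefore rest on a spread between libraries that may be only technical. Each knockout guide is represented by 1 line, so an effect of the guide and a property of the line cannot be told apart.

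IFN-gamma binds a receptor made of Ifngr1 and Ifngr2 chains, which activates the kinases Jak1 and Jak2. These activate STAT transcription factors, which bind gamma-activated sites (GAS) in target promoters. The first wave of targets includes the transcription factor Irf1, which with other IRF proteins binds interferon-stimulated response elements (ISRE), and the receptor inhibitor Socs1. In epithelial tumour cells the response is best known for raising antigen presentation, chemokines that attract T cells, guanylate-binding proteins and the ligand Cd274 (PD-L1). Cebpd encodes C/EBP delta, a basic leucine zipper factor induced by inflammatory signals that contributes to acute phase and cytokine gene transcription.

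Promoter sequences are given for genes that carry the main findings below. They are 4 interferon targets that rose and, for the amino acid and hypoxia programmes, 2 that rose and 1 that fell. Only genes that hold a match to the motif paired with them are shown, so the presence of a match was fixed in advance. Each run is the 250 bases before the RefSeq transcription start on GRCm38.p6, written 5′ to 3′ on the gene's strand. Capitals mark matches on either strand to a GAS (TTCNNNGAA) in Irf1 and Serpina3f, to an ISRE (2 runs of GAAA with any 2 bases between them) in Gbp2 and Socs1, to the C/EBP-ATF composite element (TGATGCAA) in Slc7a11 and Chac1, and to the core of the hypoxia response element (ACGTG) in Ddit4.
Irf1 (chr11:53769764-53770013, plus strand): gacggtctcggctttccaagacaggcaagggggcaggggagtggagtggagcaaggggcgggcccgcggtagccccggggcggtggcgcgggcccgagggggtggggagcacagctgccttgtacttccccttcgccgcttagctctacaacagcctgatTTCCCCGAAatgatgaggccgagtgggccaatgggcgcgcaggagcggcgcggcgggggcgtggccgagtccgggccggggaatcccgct
Serpina3f (chr12:104214294-104214543, plus strand): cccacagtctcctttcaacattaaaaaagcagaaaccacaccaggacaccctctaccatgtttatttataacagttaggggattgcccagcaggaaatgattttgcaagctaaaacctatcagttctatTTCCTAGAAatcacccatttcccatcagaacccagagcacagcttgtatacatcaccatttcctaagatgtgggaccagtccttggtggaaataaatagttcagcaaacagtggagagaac
Gbp2 (chr3:142620413-142620662, plus strand): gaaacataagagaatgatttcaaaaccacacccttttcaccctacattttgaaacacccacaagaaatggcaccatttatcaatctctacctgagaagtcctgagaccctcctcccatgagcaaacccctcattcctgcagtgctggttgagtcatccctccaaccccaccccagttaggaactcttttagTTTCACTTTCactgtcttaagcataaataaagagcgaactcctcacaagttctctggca
Socs1 (chr16:10785537-10785786, minus strand): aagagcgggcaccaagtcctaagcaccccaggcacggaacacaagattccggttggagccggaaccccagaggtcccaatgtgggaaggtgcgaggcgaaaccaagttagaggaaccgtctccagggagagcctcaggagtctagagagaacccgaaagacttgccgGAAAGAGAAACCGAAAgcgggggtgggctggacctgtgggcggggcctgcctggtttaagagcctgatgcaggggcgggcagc
Slc7a11 (chr3:50443614-50443863, minus strand): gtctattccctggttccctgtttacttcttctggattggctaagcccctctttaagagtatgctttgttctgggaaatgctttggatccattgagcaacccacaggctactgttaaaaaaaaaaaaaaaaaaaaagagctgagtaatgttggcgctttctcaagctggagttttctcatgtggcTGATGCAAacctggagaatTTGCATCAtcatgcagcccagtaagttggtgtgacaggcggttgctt
Chac1 (chr2:119350992-119351241, plus strand): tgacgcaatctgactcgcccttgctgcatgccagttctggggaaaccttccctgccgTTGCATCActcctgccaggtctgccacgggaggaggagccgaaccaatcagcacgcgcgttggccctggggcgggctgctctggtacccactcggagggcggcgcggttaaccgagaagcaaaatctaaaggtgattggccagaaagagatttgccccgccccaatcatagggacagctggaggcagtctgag
Ddit4 (chr10:59951771-59952020, minus strand): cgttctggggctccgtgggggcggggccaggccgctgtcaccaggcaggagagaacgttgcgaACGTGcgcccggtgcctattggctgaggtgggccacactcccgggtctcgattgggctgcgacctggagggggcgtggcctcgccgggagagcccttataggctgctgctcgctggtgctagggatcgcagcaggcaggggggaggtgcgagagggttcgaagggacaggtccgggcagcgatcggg
The GAS match begins 90 bases before the start of Irf1 and 121 bases before that of Serpina3f. The ISRE match begins 59 bases before the start of Gbp2, and Socs1 holds 2 overlapping matches that begin at 83 and 77 bases. The composite element begins at 66 and 47 bases in Slc7a11 and at 193 in Chac1, and the hypoxia core at 187 in Ddit4. Of all 27025 mouse promoter windows in the RefSeq table, 7.18% hold the GAS pattern, 3.04% the ISRE pattern, 0.818% the composite element and 16.6% the hypoxia core, which also lies inside the E-box CACGTG. A match is a description of the letters and does not show binding.

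The 12 libraries held between 16912710 and 24784371 counts, and the 4 sgRNA2 libraries between 18304354 and 24784371. Replicate libraries were closely alike, with Spearman correlations of 0.9961 to 0.9971 over genes, and every pair differed by more than counting noise. The excess, as chi-square per degree of freedom, was largest in the sgRNA2 pairs, at 5.13 in vehicle and 7.27 after IFN-gamma. In the other groups it was 2.77 to 3.63. The fit estimates the spread of a gene over all 6 groups, so the spread used for sgRNA2 cells may be too small. Mitochondrially encoded genes took 1.12% and 1.14% of counts in sgRNA2 vehicle cells and 0.628% and 0.533% after IFN-gamma, and in sgRNA1 cells 0.814% and 0.839% and then 0.544% and 0.54%. In control cells that share was higher after IFN-gamma, at 1.03% and 1.18% against 0.67% and 0.62%. Cytosolic ribosomal protein genes took 12.9% and 13.4% of counts in sgRNA2 vehicle cells and 11.3% and 10.2% after IFN-gamma. All 6 epithelial markers were measured and summed to 2970 to 3040 CPM (counts scaled to a common library size) in vehicle and 2420 to 2580 CPM after IFN-gamma. The 5 of 7 macrophage markers that were measured summed to 46.7 and 48.3 CPM against 46.9 and 46.9 CPM. Within that sum Csf1r went from 7.51 and 9.02 to 0.859 and 1.41 CPM. Cd68 went from 25.3 and 25.6 to 30.5 and 29 CPM. The 1 of 7 T and NK cell markers and the 3 of 5 endothelial markers that were measured summed to 0.0537 to 0.794 CPM and 0.322 to 0.466 CPM over the sgRNA2 libraries. The 2 of 6 fibroblast markers summed to 32.2 and 32 CPM in vehicle and 22.3 and 26.4 CPM after IFN-gamma. The 2 of 4 pan-leukocyte markers that were measured, Ptprc and Coro1a, summed to 1.04 and 1.53 CPM in vehicle and 0.322 and 0.746 CPM after IFN-gamma. Ptprc, which encodes the pan-leukocyte protein CD45, had 4 and 10 counts in vehicle and no count in either IFN-gamma library.

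Cebpd (ENSMUSG00000071637, GRCm38 chromosome 16, 15887286 to 15891031, plus strand) had 204 and 150 counts in the sgRNA2 vehicle libraries and 563 and 749 after IFN-gamma, or 10.6 and 8.51 against 30.2 and 29.4 CPM. The arms did not overlap, and the IFN-gamma libraries were higher. Its log2 fold change, given here and below with its standard error from the edgeR fit, was 1.64 ± 0.11 (edgeR quasi-likelihood test, adjusted p = 3.19e-10). The rise was smaller than the 2.66 ± 0.10 of control cells, with a difference between the responses of -1.02 ± 0.15 (edgeR adjusted p = 1.22e-05), and did not pass the test against that of sgRNA1 cells (-0.12 ± 0.15, edgeR adjusted p = 0.549). A count over the whole gene does not read the edited sequence, and no source used here gives the guides' target positions, so this transcript does not check the edit. All 5 tested genes of the list drawn up for the C/EBP family, which goes by gene name, rose (median log2 fold change 0.56). Cebpb, a related activator of acute phase genes, went from 144 and 118 to 225 and 248 CPM (0.85 ± 0.07).

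Of 13601 genes tested across all 12 libraries, 8123 (59.7%) changed in sgRNA2 cells at an adjusted p below 0.05, with 4148 (30.5%) higher and 3975 (29.2%) lower after IFN-gamma. The balance depends on scaling: 51.1% of the calls were rises with TMM scaling and 38.1% with upper quartile scaling, which shifted the median gene from -0.02 to -0.14. Changes of at least 2-fold were fewer, with 622 rises (4.57%) and 1018 falls (7.48%). In 10660 genes (78.4%) the 2 IFN-gamma libraries lay on 1 side of both vehicle libraries. In bulk RNA, a change in the number of cells with a transcript and a change in the amount per cell cannot be told apart. Each gene list below is set against these shares: 30.5% of all genes rose, 29.2% fell, and the median gene had a log2 fold change of -0.02. For counts in control cells the shares are 36.4% rises and 34.1% falls, with a median of 0.01. For counts in sgRNA1 cells they are 31.7% and 29.6%, with a median of -0.0007.

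**Figure D1:**
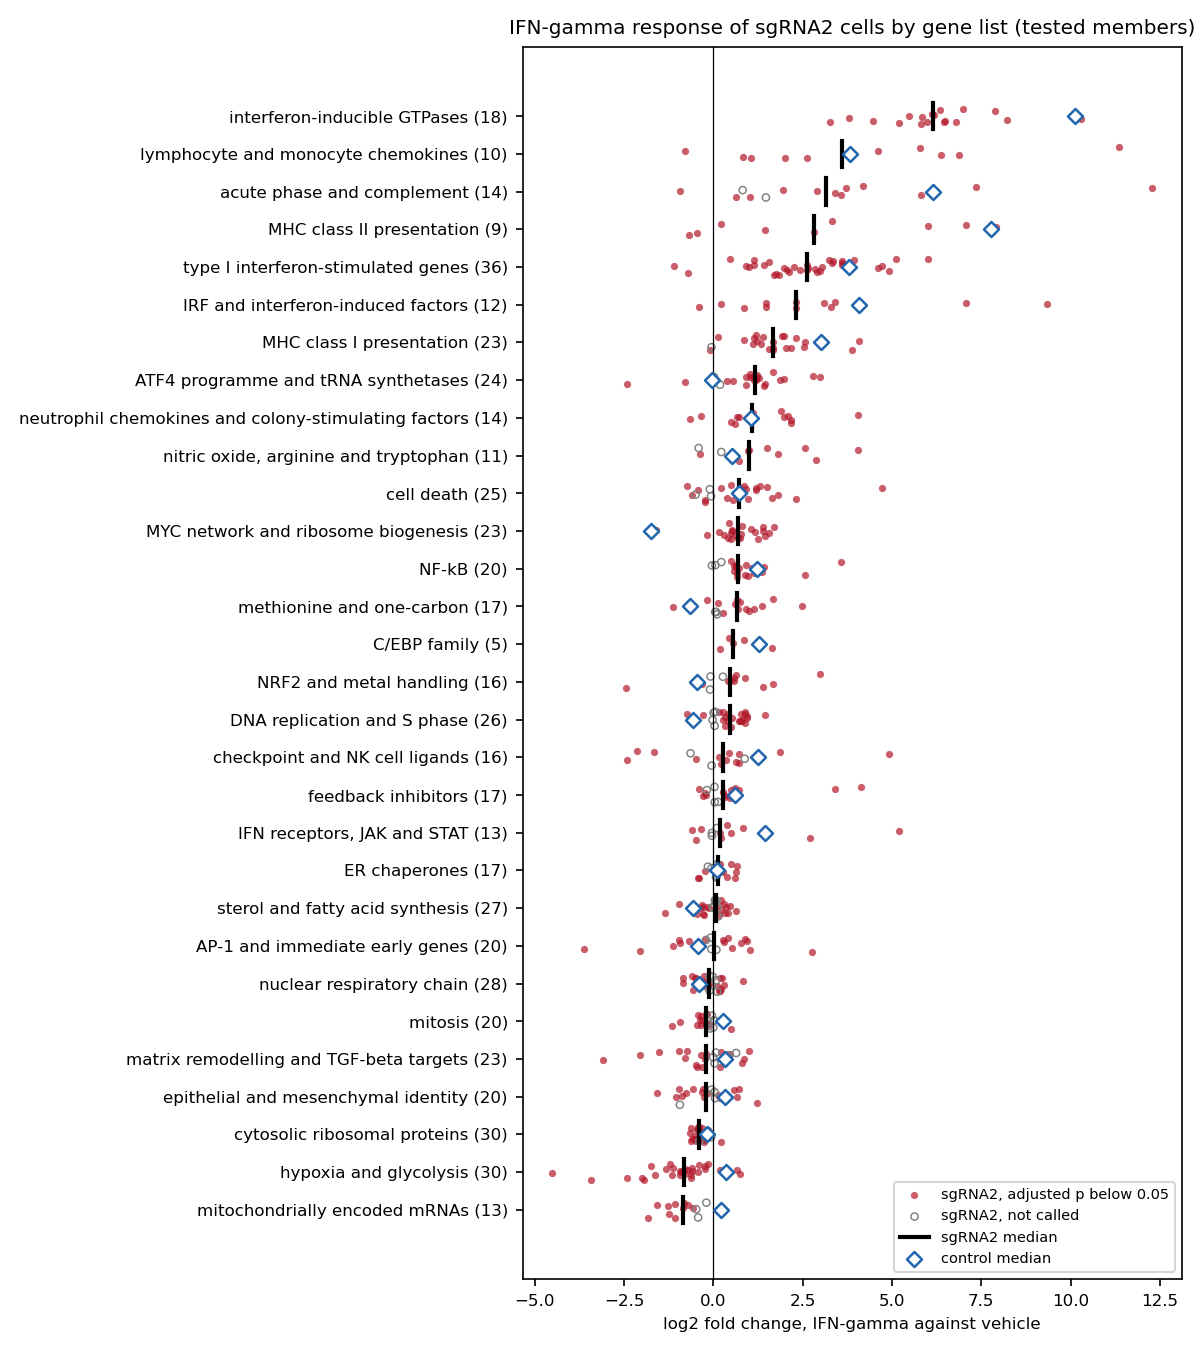
Log2 fold change of IFN-gamma over vehicle in sgRNA2 cells (horizontal axis) for every tested member of each gene list (rows; 1 dot a gene), with the sgRNA2 median as a bar and the median of the same genes in control cells as a diamond (fitted values, which depend on edgeR's prior count where an arm holds no count). The interferon GTPases have the highest sgRNA2 median, 6.15, and the hypoxia and mitochondrially encoded lists have the lowest, -0.83 and -0.86.

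Interferon signalling components responded unevenly. Of 13 receptors, kinases and STATs, 7 rose and 3 fell in sgRNA2 cells, with a median log2 fold change of 0.18, against 12 rises and a median of 1.44 in control cells. Stat2, a subunit of the ISRE-binding complex with Irf9, was at 30.02 and 25 CPM in vehicle and 180.3 and 179 CPM after IFN-gamma. The arms were far apart, with a log2 fold change of 2.70 ± 0.07 (edgeR adjusted p = 5e-16). Ifngr1, the ligand-binding chain of the IFN-gamma receptor, fell from 49.2 and 50.5 to 33 and 32.5 CPM without overlap of the arms. Its log2 fold change was -0.61 ± 0.06 (edgeR adjusted p = 7.91e-08), against 0.51 ± 0.06 in control cells. Tyk2, the kinase of the type I interferon receptor, fell too (-0.47 ± 0.09), as did the type I receptor chain Ifnar1 (-0.33 ± 0.06). For Jak2 the change was 0.10 ± 0.05 (edgeR adjusted p = 0.104) and for Ifngr2 it was -0.04 ± 0.08 (edgeR adjusted p = 0.654), and neither passed the test in sgRNA2 cells. Without the first treated library Jak2 did, at 0.16 (edgeR adjusted p = 0.043).

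Among 17 feedback inhibitors 9 rose and 4 fell, with a median of 0.27. Socs1, which blocks the kinase activity of the receptor complex, was at 2.75 and 2.04 CPM in vehicle and at 45.5 and 39.8 CPM after IFN-gamma. Both treated libraries were far above both vehicle libraries. The log2 fold change was 4.14 ± 0.12 (edgeR adjusted p = 3.48e-15), larger than in control cells by 1.16 ± 0.17 (edgeR adjusted p = 1.15e-05) and than in sgRNA1 cells by 1.2 ± 0.18 (edgeR adjusted p = 4.23e-05). Usp18, which restrains type I interferon receptor signalling, moved the other way in that comparison: it rose by 3.39 ± 0.10 in sgRNA2 cells and by 5.61 ± 0.14 in control cells. Socs3, an inhibitor best known for limiting gp130 cytokine signals, went from 40.9 and 39.4 to 48.8 and 50.5 CPM (0.31 ± 0.06, against 2.11 ± 0.06 in control cells).

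The interferon regulatory factors rose nearly as a set. Of 12 IRF-related transcription factors tested, 11 rose and 1 fell, with a median of 2.31. Irf1, the first-wave target whose GAS is shown above, rose from 126 and 127 to 619 and 633 CPM. The arms did not overlap, and the log2 fold change was 2.31 ± 0.05 (edgeR adjusted p = 5.67e-17). The control line started lower, at 22.6 and 26.6 CPM, and ended higher, at 777 and 779.5 CPM, and the sgRNA2 response differed from the control response by -2.68 ± 0.08 on the log2 scale (edgeR adjusted p = 5.36e-15). Irf8 (3.40 ± 0.05), Irf7 (3.29 ± 0.07), the MHC class I activator Nlrc5 (3.08 ± 0.06) and Irf9 (2.31 ± 0.08) rose as well. Irf3, a constitutive factor of the innate sensing pathway, was the member that fell (-0.41 ± 0.07).

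All 18 GTPases of the guanylate-binding and immunity-related families that were tested rose (median log2 fold change 6.15). These proteins target membranes around intracellular pathogens. Gbp2 rose from 16.1 and 15.5 to 1169 and 1111 CPM, with no overlap (6.17 ± 0.08, edgeR adjusted p = 2.95e-20). Gbp4 went from 7.57 and 7.54 to 663 and 672 CPM and Ifi47 from 6.84 and 6.58 to 150.1 and 150.2 CPM. Ifi47 read 0.155 and 0 CPM in control vehicle cells and 131 and 128 CPM in treated control cells, so the sgRNA2 line was higher in both arms and its rise started from a higher level. Several of these genes, such as Gbp2, Gbp4, Gbp10 and Tgtp1, have close paralogs, and no source used here says how reads shared between copies were counted.

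Leading genes were picked among called genes that averaged 1 CPM or more in sgRNA2 libraries and had arms that did not overlap. The 12 largest rises were Serpina3f, Cxcl9, Iigp1, Apol6, Mpeg1, Batf2, Gm12250, Tgtp1, H2-Aa, Gbp10, C4b and Ubd. Serpina3f, a serine protease inhibitor of the acute phase family (chromosome 12, 104214544 to 104221129, plus strand), had 0 and 0 counts in vehicle and 528 and 869 after IFN-gamma, at least 195-fold higher against a floor of 3 counts per library. Cxcl9, a chemokine for activated T cells (chromosome 5, 92321347 to 92328079, minus strand), had 2 and 2 counts in vehicle and 5672 and 7522 after IFN-gamma. It was abundant after treatment, at 305 and 295 CPM, and nearly silent before. Mpeg1, a pore-forming protein of phagocytes, stood at a ratio of 720.0 (95% counting interval 246 to 3500) and Apol6, a lipid-binding protein linked to cell death, at 798 (221 to 6590). Batf2, an interferon-induced basic leucine zipper factor, stood at 791 (142 to 31300). These intervals are wide because few vehicle counts lie behind them, and they cover counting error only. Ubd, a ubiquitin-like modifier, had a ratio of 165 (45.5 to 1370), and the complement gene C4b a log2 fold change of 7.36 ± 0.23.

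**Figure D2:**
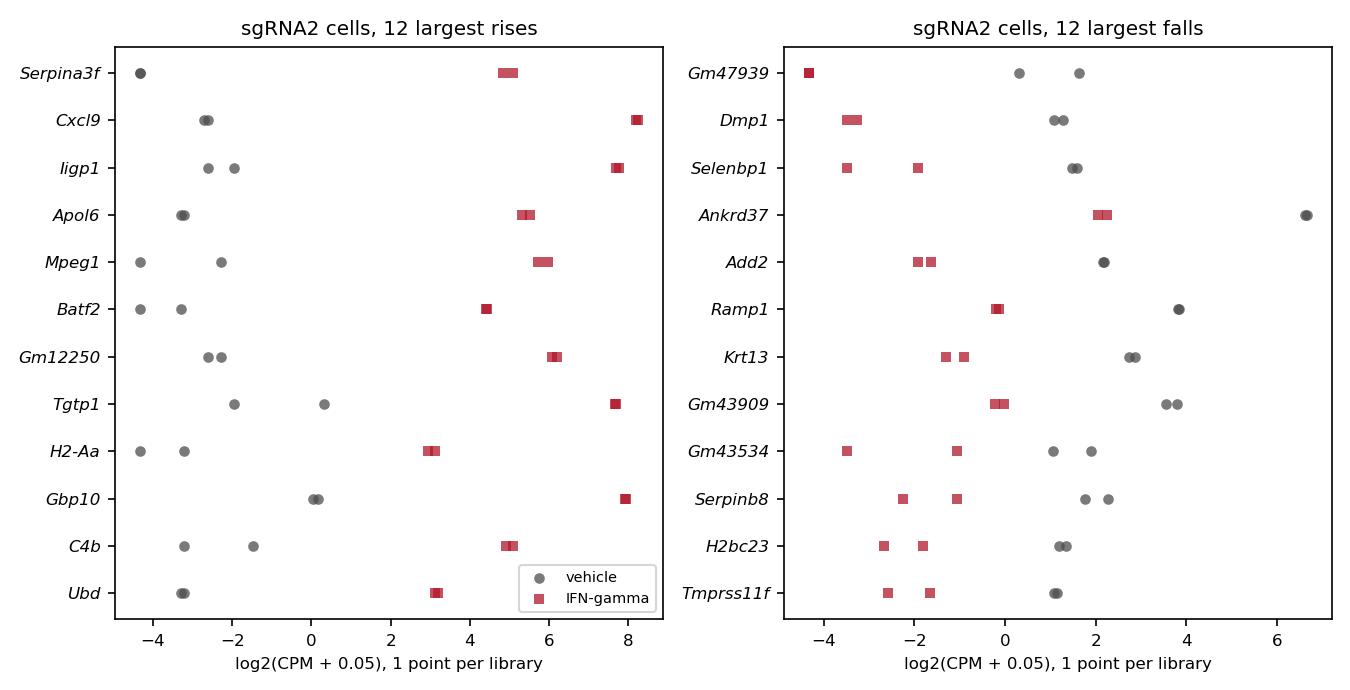
Level in each sgRNA2 library, as log2(CPM + 0.05), of the 12 genes with the largest rises and the 12 with the largest falls after IFN-gamma (1 point a library, vehicle and IFN-gamma marked apart). The genes were chosen among those with arms that do not overlap. Several of the rising genes sit at or near the floor in vehicle, such as Serpina3f with no count.

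Chemokines and growth factors for leukocytes rose in both classes tested. Of 10 chemokines that attract lymphocytes and monocytes, 9 rose and 1 fell, with a median of 3.61. Cxcl10, a ligand of Cxcr3, a chemokine receptor on activated T cells, rose from 2.07 and 1.99 to 163 and 175 CPM (6.37 ± 0.10). Ccl2, the main chemokine for monocytes, was at 7.36 and 8.96 CPM in vehicle and 205 and 193 CPM after IFN-gamma. The arms did not overlap, and its log2 fold change of 4.61 ± 0.07 exceeded the control response by 1.44 ± 0.15 (edgeR adjusted p = 8.3e-08) and the sgRNA1 response by 1.48 ± 0.10 (edgeR adjusted p = 4.47e-09). Of 14 neutrophil chemokines, interleukins and colony-stimulating factors, 12 rose and 2 fell, with a median of 1.09. Csf3, the growth factor of neutrophils, rose from 79.1 and 76.9 to 348 and 349 CPM (2.16 ± 0.05), by 1.25 ± 0.07 more than in control cells (edgeR adjusted p = 1.53e-11). Il6, an acute phase cytokine, rose by 4.05 ± 0.23 and the neutrophil chemokine Cxcl1 by 1.90 ± 0.05. Mif, the macrophage migration inhibitory factor, fell (-0.65 ± 0.06).

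Antigen presentation rose in both classes. Of 23 MHC class I pathway genes, 21 rose and 1 fell, with a median of 1.66 against 3.02 in control cells, and for 18 the rise was smaller than in control cells by the test of the difference, whose background is given below. The peptide transporter subunit Tap1 went from 28.6 and 27.6 to 466 and 478 CPM. Its arms were apart, with a log2 fold change of 4.07 ± 0.05 (edgeR adjusted p = 2.56e-20). The immunoproteasome subunit Psmb9 rose by 3.87 ± 0.07 and the class I light chain B2m by 1.14 ± 0.04, from 392 and 409 to 890.0 and 880.2 CPM. The class I heavy chains H2-K1 (1.23 ± 0.07) and H2-D1 (1.21 ± 0.04) rose by a similar amount and share sequence with other H2 genes. Of 9 MHC class II genes 7 rose and 2 fell. Ciita, the master regulator of class II transcription, had 2 and 4 counts in vehicle and reached 20.8 and 24.3 CPM after IFN-gamma. The class II beta chain gene H2-Ab1 rose from 1.61 and 2.16 to 12.6 and 14 CPM (2.83 ± 0.19), and the invariant chain Cd74 rose from 10.1 and 9.81 to 104 and 96.4 CPM. H2-Ab1 reached 9.04 and 10.3 CPM in treated control cells from 0 and 0 CPM. The members that fell were Rfxank (-0.68 ± 0.12) and Rfxap (-0.46 ± 0.11), subunits of the complex that occupies class II promoters.

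Of 36 genes first known as type I interferon-stimulated, 34 rose and 2 fell in sgRNA2 cells, with a median of 2.63 against 3.81 in control cells. Mx1, an antiviral dynamin-like GTPase, rose by 5.99 ± 0.44, the ubiquitin-like Isg15 by 2.83 ± 0.08 and the RNA sensor synthetase Oas3 by 2.99 ± 0.06. Isg20, an antiviral exonuclease, fell: it was at 115 and 112 CPM in vehicle and at 53.9 and 52.6 CPM after IFN-gamma. The arms did not overlap, and the change of -1.10 ± 0.06 contrasted with 1.0 ± 0.07 in control cells. Ifitm2, a restriction factor of viral entry, also fell (-0.71 ± 0.06).

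Of 16 checkpoint and NK cell ligands, 9 rose and 4 fell, with a median of 0.28. Cd274, the ligand of PD-1, was at 3.63 and 1.42 CPM in vehicle and 78.7 and 77.6 CPM after IFN-gamma. The treated libraries were far above both vehicle libraries, and the log2 fold change was 4.92 ± 0.16 (edgeR adjusted p = 2.22e-14), against 6.45 ± 0.16 in control cells. The difference between these responses was called (-1.53 ± 0.35), but not without the first sgRNA2 vehicle library (-0.61, edgeR adjusted p = 0.173). Lgals9, a galectin ligand of TIM-3, rose by 1.86 ± 0.09. Vsir, which encodes the checkpoint protein VISTA, fell from 20.7 and 21.2 to 3.6 and 4.2 CPM in sgRNA2 cells (-2.41 ± 0.16) and rose in control cells (2.35 ± 0.16). The difference between these responses was -4.76 ± 0.22 (edgeR adjusted p = 2.69e-12).

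Of 25 cell death genes 17 rose and 5 fell, with a median of 0.73. The death ligand Tnfsf10 (TRAIL) rose by 4.72 ± 0.30, the inflammatory caspases Casp4 by 2.31 ± 0.12 and Casp1 by 1.65 ± 0.12, and the necroptosis effector Mlkl by 1.2 ± 0.05. The death receptor Fas rose by 0.73 ± 0.08 in sgRNA2 cells and by 3.65 ± 0.12 in control cells.

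Of 11 genes of nitric oxide, arginine and tryptophan metabolism 8 rose and 1 fell, with a median of 1.0. Nos2, the inducible nitric oxide synthase, was at 106 and 107 CPM in vehicle and at 788 and 768 CPM after IFN-gamma. Its arms were separate (2.87 ± 0.05, edgeR adjusted p = 9.48e-19). Control cells went from 6.87 and 7.45 to 1304 and 1315 CPM, so the sgRNA2 line began above and ended below them. Acod1, which makes the antimicrobial metabolite itaconate, rose by 4.04 ± 0.11. The tryptophanyl-tRNA synthetase gene Wars rose from 35.3 and 31.2 to 198 and 195 CPM (2.56 ± 0.05), against 0.52 ± 0.05 in control cells.

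Of 14 acute phase and complement genes, many of which C/EBP proteins are known to activate, 11 rose and 1 fell, with a median of 3.15. The central complement component C3 went from 261 and 256 to 522 and 533 CPM (1.03 ± 0.04). In control cells it rose by 4.26 ± 0.05. Lcn2, a siderophore-binding acute phase protein, rose by 0.62 ± 0.05 in sgRNA2 cells and 4.17 ± 0.07 in control cells. The starting levels differed: in vehicle both sgRNA2 libraries lay above both control libraries for 12 of the 14 genes (45.2% of all genes). After IFN-gamma they lay above for 8 (40.5% of all genes) and below for 3 (39.5% of all genes). Cp, the copper-carrying protein ceruloplasmin, was the member that fell, from 209 and 204 to 108 and 109.9 CPM (-0.92 ± 0.04). Of 20 NF-kB targets and regulators 17 rose and none fell, with a median of 0.69. The adhesion molecule Icam1 rose by 3.57 ± 0.08 and the prostaglandin synthase Ptgs2 went from 193 and 198 to 509 and 491 CPM (1.35 ± 0.05), whereas Ptgs2 fell in control cells (-0.48 ± 0.05).

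Amino acid and one-carbon genes rose. Of 24 genes of the ATF4 programme and tRNA synthetases, 20 rose and 2 fell in sgRNA2 cells, with a median of 1.15 against -0.03 in control cells. In sgRNA1 cells 22 rose and 2 fell, with a median of 0.71, and the difference between the 2 guide lines was called positive for 15 and negative for 5. ATF4 is the transcription factor of the amino acid stress response and binds composite elements such as those marked in Slc7a11 and Chac1. Slc7a11, the cystine importer, was at 3.63 and 2.95 CPM in vehicle and at 26.9 and 25.2 CPM after IFN-gamma. The arms were separate, with a log2 fold change of 2.98 ± 0.13 (edgeR adjusted p = 1.07e-12) against -0.59 ± 0.12 in control cells. Chac1, a glutathione-degrading enzyme, rose from 9.02 and 8.85 to 60.6 and 62.5 CPM (2.78 ± 0.09) and the asparagine synthetase Asns from 44.4 and 46.8 to 188 and 173 CPM (1.98 ± 0.05). Atf4 itself rose from 129 and 132 to 315 and 312 CPM (1.27 ± 0.04). The falls were Ddit4, which is also a hypoxia gene, and the lipoprotein receptor Vldlr (-0.78 ± 0.15). Of the 24 genes 20 had a promoter in the RefSeq table and 4 of these (20%) held the composite element, against 0.509% of the 10026 tested genes with a promoter there. The list was made of genes of this programme, so the share describes the list and does not test the response.

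Of 17 one-carbon, serine and methionine genes 12 rose and 2 fell, with a median of 0.66, against 8 rises and 8 falls in sgRNA1 cells. Mthfd2, a mitochondrial folate enzyme, was at 20.9 and 17.8 CPM in vehicle and 114 and 105 CPM after IFN-gamma. The treated libraries were far above the vehicle ones (2.49 ± 0.07, edgeR adjusted p = 1.41e-15). Shmt2, which feeds serine carbon into the same pathway, rose from 74 and 71.8 to 239 and 225 CPM (1.67 ± 0.05). Psph (1.36 ± 0.06) and Phgdh (0.66 ± 0.05), enzymes of serine synthesis, rose too. Mat2a, which makes S-adenosylmethionine, fell from 72.2 and 76.7 to 33.4 and 35 CPM (-1.12 ± 0.05), against -3.75 ± 0.05 in control cells (difference 2.64 ± 0.08, edgeR adjusted p = 8.51e-15).

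Ribosome biogenesis and DNA replication genes rose in sgRNA2 cells. Of 23 MYC and ribosome biogenesis genes, 21 rose and 2 fell, with a median of 0.70 against -1.75 in control cells. In sgRNA1 cells 9 rose and 11 fell. Rrp12, a factor for ribosomal subunit export, was at 6.12 and 6.35 CPM in vehicle and 20.8 and 19.7 CPM after IFN-gamma. The arms did not overlap, and the log2 fold change was 1.70 ± 0.09 (edgeR adjusted p = 2.43e-11) against -2.52 ± 0.07 in control cells. Nop2, an rRNA methyltransferase, rose by 1.45 ± 0.07, the processome subunit Utp20 by 1.56 ± 0.08 and the nucleolar helicase Ddx21 by 1.25 ± 0.05. Myc, the transcription factor that drives many of these genes, rose from 73.9 and 72.5 to 125 and 123 CPM (0.76 ± 0.05) and fell in control cells (-1.03 ± 0.05). The members that fell were the nucleolar chaperone Npm1 (-0.18 ± 0.05; not called at -0.09 without the second vehicle library or at -0.10 without the second treated one) and the microRNA host gene Mir17hg (-1.59 ± 0.16).

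Of 26 DNA replication and S phase genes 20 rose and 2 fell, with a median of 0.45 against -0.56 in control cells. In sgRNA1 cells 9 rose and 11 fell. Ccne1, the cyclin that starts S phase, rose from 4.92 and 5.96 to 13.7 and 15.8 CPM (1.45 ± 0.13), and the replicative helicase subunit Mcm3 from 87.2 and 85.7 to 162 and 160.0 CPM (0.89 ± 0.04). Cyclin D1, encoded by Ccnd1, rose from 304 and 312 to 538 and 527 CPM (0.79 ± 0.04). The cyclin-dependent kinase inhibitor Cdkn1a fell (-0.74 ± 0.10), as did the helicase subunit Gins2 (-0.28 ± 0.06). Mitotic genes did not share this direction: of 20 tested, 1 rose and 13 fell, with a median of -0.19, and the number of falls ranged from 9 to 18 over the alternative settings. Cdc20, an activator of the anaphase-promoting complex, went from 226 and 209 to 96.9 and 97 CPM (-1.17 ± 0.05) and the mitotic cyclin Ccnb2 from 288 and 291 to 154 and 151 CPM (-0.92 ± 0.05). Top2a, a topoisomerase, was the member that rose (0.51 ± 0.04). Cell numbers and cell cycle phases are not measured in the files used here.

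Hypoxia and glycolysis genes fell. Of 30 tested, 27 fell and 3 rose in sgRNA2 cells, with a median log2 fold change of -0.83, against 4 falls, 21 rises and a median of 0.34 in control cells. Their summed level was 30226 and 30214 CPM in vehicle and 18497 and 17465 CPM after IFN-gamma. These genes are targets of hypoxia-inducible factors, which shift cells toward glycolysis and promote vessel growth. Ankrd37, a small ankyrin protein and a direct target of these factors (chromosome 8, 45996902 to 46005707, minus strand), was at 97.8 and 101 CPM in vehicle and at 4.72 and 4.12 CPM after IFN-gamma. Its log2 fold change was -4.50 ± 0.13 (edgeR adjusted p = 2.81e-15). Ankrd37 also fell, by less, in control cells (-0.77 ± 0.14) and in sgRNA1 cells (-1.72 ± 0.14). Adm, the vasodilator peptide adrenomedullin, fell from 86.8 and 82.3 to 7.95 and 7.93 CPM (-3.41 ± 0.10). Ddit4, an inhibitor of the growth kinase mTORC1, fell from 1086 and 1088 to 199.5 and 206 CPM (-2.42 ± 0.05). Ddit4 rose in control cells (0.77 ± 0.05). Vegfa, the main growth factor of blood vessels, went from 237 and 229 to 57.7 and 62.6 CPM (-1.95 ± 0.06), a difference from the control response of -2.78 ± 0.09 (edgeR adjusted p = 3.34e-14).

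Enzymes of glycolysis and pH control were among the falls. Pgk1, phosphoglycerate kinase, went from 5178 and 5193 to 2371 and 2284 CPM (-1.16 ± 0.04), the glucose transporter Slc2a1 fell (-0.70 ± 0.05) and so did the lactate dehydrogenase Ldha (-0.63 ± 0.04). Car9, a carbonic anhydrase that controls tumour pH, fell from 188 and 200.2 to 58.4 and 58.6 CPM (-1.73 ± 0.05) in sgRNA2 cells and rose by 1.44 ± 0.05 in control cells. The members that rose were the hexokinases Hk2 (0.74 ± 0.06) and Hk1 (0.66 ± 0.05) and the regulator Pfkfb3 (0.20 ± 0.07). The Pfkfb3 call was lost with DESeq2 (0.20, adjusted p = 0.0569), with upper quartile scaling (0.07, edgeR adjusted p = 0.375) and without the second treated library (0.12, edgeR adjusted p = 0.249). Of the 30 genes 28 had a promoter in the RefSeq table, and 13 of these (46.4%) held the ACGTG core, against 21.9% of the 10026 tested genes with a promoter there. The list was made of genes of this programme and the motif was chosen with earlier results known. This share therefore describes the list and does not test the response. No source used here gives the oxygen level or density of the cultures.

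**Figure D3:**
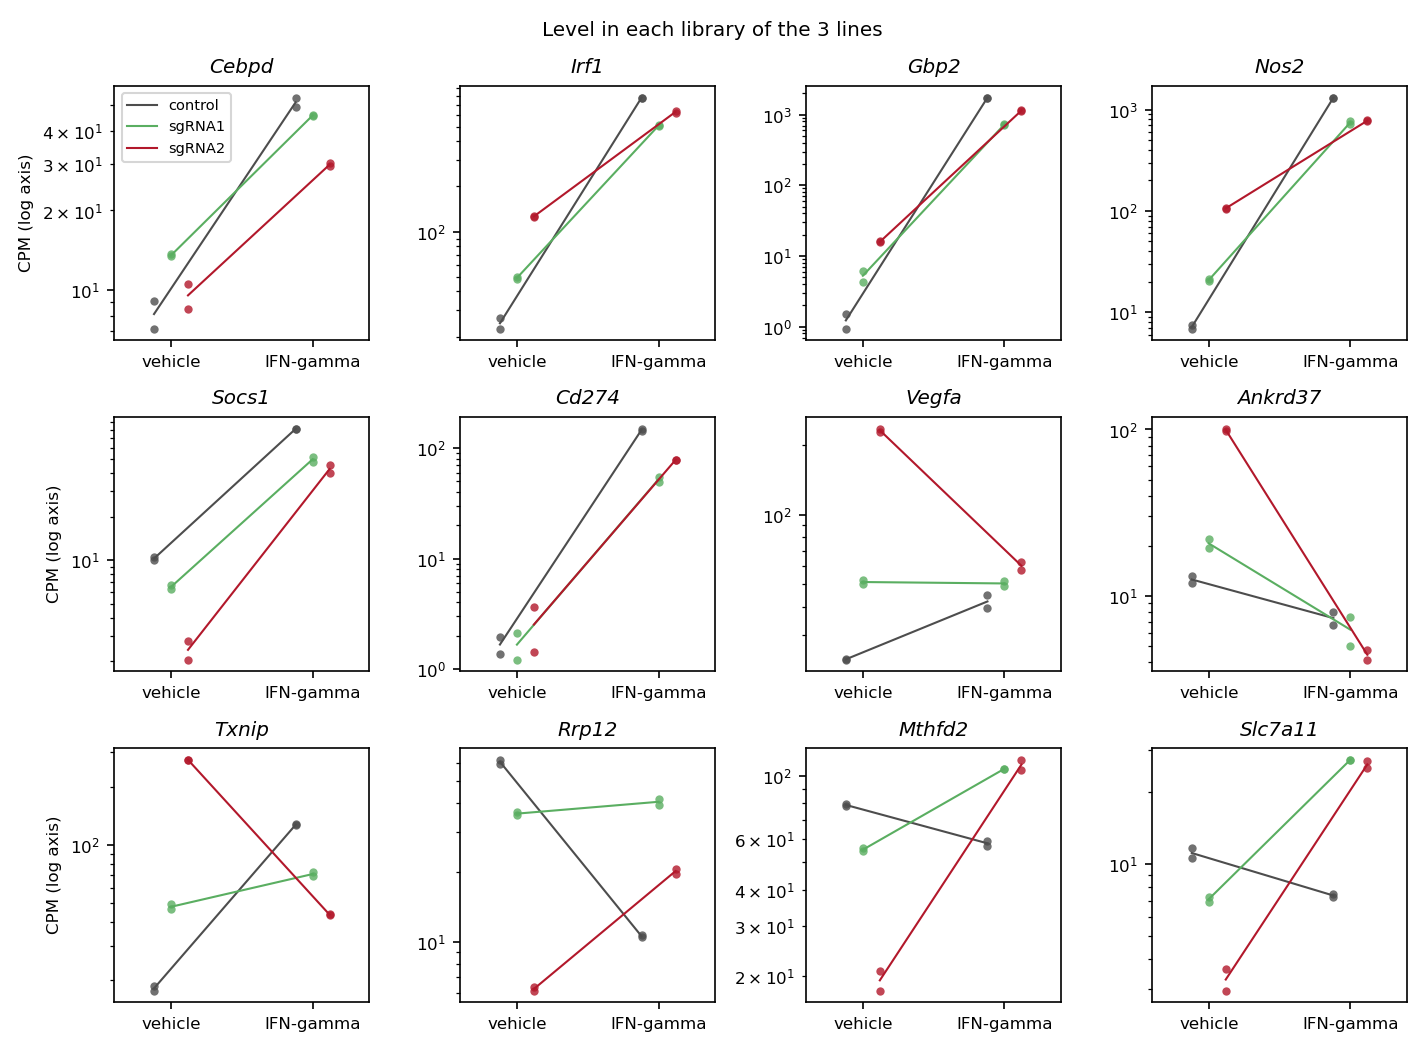
CPM on a log axis in each library (points) of control, sgRNA1 and sgRNA2 cells, vehicle and IFN-gamma, for 12 genes named in the text. In sgRNA2 cells Cebpd, Irf1, Gbp2, Nos2, Socs1, Cd274, Rrp12, Mthfd2 and Slc7a11 are higher after IFN-gamma, while Vegfa, Ankrd37 and Txnip are lower.

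Transcripts of the mitochondrial genome fell in sgRNA2 cells. Of 13 mitochondrially encoded mRNAs, 10 fell and none rose, with a median of -0.86 against 0.20 in control cells. In sgRNA1 cells 12 fell and none rose, with a median of -0.90, and the difference between the 2 guide lines was called for 3. mt-Co1, a subunit of cytochrome oxidase, was at 6763 and 6711 CPM in vehicle and at 2863 and 2684 CPM after IFN-gamma, without overlap. Its log2 fold change was -1.28 ± 0.05 (edgeR adjusted p = 1.54e-13), and it rose in control cells (1.62 ± 0.05). The mitochondrial share of counts given above, which can also move with RNA quality, was lower in the treated sgRNA2 libraries, and its part in other results was not tested. Of 28 nuclear genes of the respiratory chain 8 rose and 14 fell, with a median of -0.11. In control cells 2 rose and 22 fell, with a median of -0.39. Of 30 cytosolic ribosomal proteins 26 fell and 1 rose in sgRNA2 cells, with a median of -0.39. Control cells had 20 falls and 1 rise (median -0.17), and sgRNA1 cells had 30 falls (median -0.77). Rpl30, a subunit of the large ribosomal particle, was the member that rose in sgRNA2 cells (0.20 ± 0.09). That call was lost with DESeq2 (0.22, adjusted p = 0.146) and without 1 library of either arm (0.09 and 0.15).

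Epithelial and matrix genes were divided. Of 20 epithelial and mesenchymal identity genes 6 rose and 10 fell, with a median of -0.21. Epcam, an epithelial adhesion protein, fell from 440.2 and 425 to 228 and 217 CPM (-0.96 ± 0.04) and the keratin Krt19 from 269 and 269 to 132 and 127 CPM (-1.05 ± 0.05), while both rose in control cells (0.49 ± 0.04 and 0.90 ± 0.05). E-cadherin, encoded by Cdh1, rose from 289 and 285 to 446 and 459 CPM (0.66 ± 0.04). Among mesenchymal regulators Zeb2 rose (1.23 ± 0.11) and Snai1 fell (-0.77 ± 0.10). Of 23 matrix, protease and TGF-beta target genes 6 rose and 12 fell, with a median of -0.20. Mmp9, a gelatinase, fell from 383 and 366 to 192 and 189 CPM (-0.97 ± 0.04) and rose in control cells (1.77 ± 0.05). Id2, an inhibitor of basic helix-loop-helix factors, fell as well (-2.05 ± 0.14). The collagenase gene Mmp13 rose (1.0 ± 0.07).

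Of 20 AP-1 and immediate early genes 9 rose and 7 fell, with a median of 0.01. Atf3, a stress-induced repressor, rose by 2.75 ± 0.06, and Junb, an AP-1 subunit, fell from 499 and 452 to 215 and 223 CPM (-1.12 ± 0.05). Of 27 sterol genes 10 rose and 10 fell. Insig1, which retains the sterol sensor in the endoplasmic reticulum, fell from 193 and 186 to 69.9 and 77 CPM (-1.37 ± 0.06). Of 16 NRF2 and metal handling genes 9 rose and 4 fell. The glutathione synthesis subunit Gclm rose (0.89 ± 0.07) and the iron exporter Slc40a1 fell (-2.45 ± 0.23). Of 17 ER chaperones 9 rose and 3 fell, with a median of 0.13.

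The 12 largest falls, chosen as the rises were, were Gm47939, Dmp1, Selenbp1, Ankrd37, Add2, Ramp1, Krt13, Gm43909, Gm43534, Serpinb8, H2bc23 and Tmprss11f. Ramp1, a receptor chain for the neuropeptide CGRP (chromosome 1, 91179822 to 91225196, plus strand), was at 14.2 and 14 CPM in vehicle and 0.859 and 0.824 CPM after IFN-gamma. Its log2 fold change was -4.06 ± 0.21 (edgeR adjusted p = 1.71e-11). Krt13, a keratin of stratified epithelia (chromosome 11, 100117327 to 100121566, minus strand), fell from 6.58 and 7.21 to 0.483 and 0.353 CPM (-4.05 ± 0.38). Add2, a membrane skeleton protein, went from 4.41 and 4.48 to 0.215 and 0.275 CPM (-4.13 ± 0.41). Selenbp1, a methanethiol oxidase, fell from 2.96 and 2.72 to 0.215 and 0.0393 CPM (-4.55 ± 0.61). It rose in control cells (3.35 ± 1.11), but near the floor, from a mean of 0.0258 to 0.323 CPM. Dmp1, a bone matrix phosphoprotein, stood at a ratio of 0.0204 (95% counting interval 0.00243 to 0.0761). Gm47939 had 23 and 54 counts in vehicle and 0 and 0 after IFN-gamma, at least 15.3-fold lower against the floor of 3 counts per library. This is a gene model with no assigned name.

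**Figure D4:**
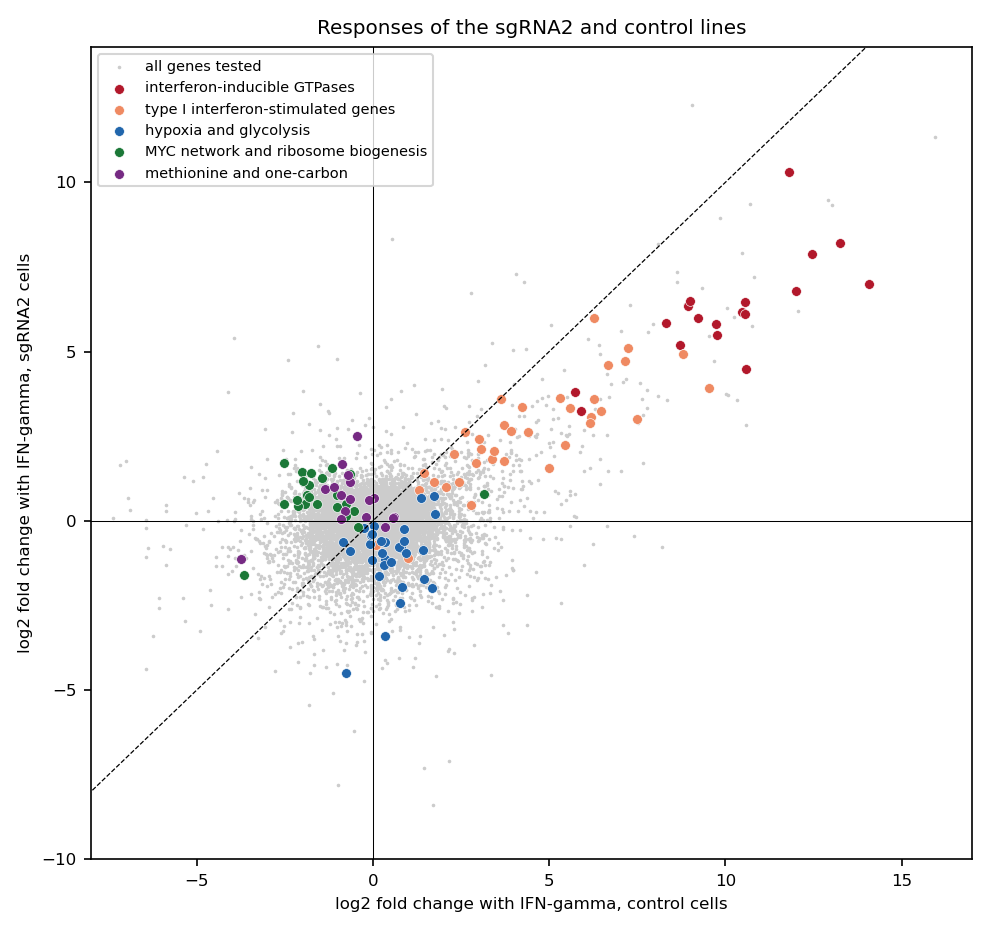
Log2 fold change of IFN-gamma over vehicle in control cells (horizontal axis) against that in sgRNA2 cells (vertical axis), 1 point for each of 13601 genes, with 5 gene lists coloured and the line of equal responses drawn. Interferon GTPases lie at high values in both lines, whereas the hypoxia genes have medians of 0.34 and -0.83 and the MYC and ribosome biogenesis genes of -1.75 and 0.70.

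The sgRNA2 response was compared with that of control cells in the same fit; the responses share no library. Control cells had 9581 called genes (70.4%), with 1681 rises (12.4%) and 1465 falls (10.8%) of at least 2-fold, more than the 622 and 1018 in sgRNA2 cells. Of the rises in sgRNA2 cells, 1973 were also rises in control cells (47.6% of the sgRNA2 rises and 39.9% of the control rises). Of the falls, 1371 were shared (34.5% and 29.6%). The difference between the responses passed the test for 8860 genes (65.1%), 4135 (30.4%) of them more positive and 4725 (34.7%) more negative in sgRNA2 cells. Over 13601 genes the fold changes of these lines had a Pearson r of 0.37 and a Spearman rho of 0.10, a description across genes that share libraries and scaling.

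For interferon effector lists the difference was mostly negative, and the levels differed in vehicle as well. The difference was called negative for 16 of 18 GTPases and positive for none, and for 32 of 36 type I interferon-stimulated genes and positive for none. In vehicle, both sgRNA2 libraries lay above both control libraries for 18 of 18 GTPases, where 45.2% of all genes did so. After IFN-gamma both lay below for 17 of 18, where 39.5% of all genes did so. The same reading for MHC class I genes gave 19 of 23 above in vehicle. After IFN-gamma 13 of 23 were below and 8 above, where 40.5% of all genes were above. For type I interferon-stimulated genes 32 of 36 were above in vehicle, and after IFN-gamma 18 were below and 12 above. Gbp2, for example, was at 0.93 and 1.52 CPM in control vehicle cells and 1741 and 1731 CPM in treated control cells, against 16.1 and 15.5 and 1169 and 1111 CPM in sgRNA2 cells. Its smaller fold change in sgRNA2 cells came with a higher start and a lower end.

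In growth and hypoxia lists many genes responded with opposite signs. Of all genes, 2919 (21.5%) were called in sgRNA2 and control cells in opposite directions with a called difference; 1509 (11.1%) rose in sgRNA2 cells and fell in control cells, and 1410 (10.4%) did the reverse. In the MYC and ribosome biogenesis list, 20 of 23 genes rose in sgRNA2 cells and fell in control cells. The same held for 14 of 26 S phase genes, 9 of 17 one-carbon genes and 9 of 24 ATF4 genes. In the reverse direction stood 18 of 30 hypoxia genes and 8 of 20 mitotic genes. The starting levels differed here too: in vehicle 22 of 23 MYC and ribosome biogenesis genes were lower in both sgRNA2 libraries than in both control libraries (40.2% of all genes), and after IFN-gamma 17 of 23 were higher (40.5% of all genes). For hypoxia genes, 25 of 30 were higher in vehicle (45.2% of all genes) and 19 of 30 lower after IFN-gamma (39.5% of all genes).

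By the size of the smaller response, the leading genes of opposite sign were Serpinb8, Prl3d2, Txnip, Pyroxd2, Vsir, Asb2, Aire and Tcp11l2. Some of these lay near the floor in 1 line. Prl3d2 had 2 and 1 counts in sgRNA2 vehicle cells and 12 and 13 after IFN-gamma. In control cells mean levels went from 0.104 to 0.797 CPM for Serpinb8 and from 0.0779 to 0.396 CPM for Aire. Txnip, a thioredoxin inhibitor that limits glucose uptake (chromosome 3, 96557957 to 96561883, plus strand), was at 274 and 276 CPM in sgRNA2 vehicle cells and 43.2 and 43.9 CPM after IFN-gamma. In control cells it was at 17.6 and 18.7 and then 126 and 128 CPM. The lines crossed, and the difference between the responses was -5.46 ± 0.07 (edgeR adjusted p = 6.65e-19). Serpinb8, a serine protease inhibitor (chromosome 1, 107590006 to 107610484, plus strand), fell from 4.77 and 3.35 to 0.161 and 0.432 CPM (-3.67 ± 0.47), against a response of 2.86 ± 0.70 in control cells. Pyroxd2, a mitochondrial oxidoreductase, fell from 19.6 and 20.6 to 3.81 and 3.53 CPM (-2.45 ± 0.17), and Aire, a transcriptional regulator known from thymic epithelium, from 3.63 and 3.35 to 0.376 and 0.471 CPM. Among genes that rose more, or fell less, in sgRNA2 than in control cells, Trmt61a, a tRNA methyltransferase subunit, went from 4.82 and 4.25 to 8.38 and 9.34 CPM in sgRNA2 cells and from 48.2 and 45.6 to 4.25 and 4.11 CPM in control cells. Aen, a p53-induced nuclease, went from 7.78 and 7.26 to 19.1 and 19.7 CPM in sgRNA2 cells and from 47.9 and 48 to 7.59 and 7.4 CPM in control cells.

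The sgRNA1 line carries the same genotype label. sgRNA1 cells had 8350 called genes (61.4%), with 937 rises (6.89%) and 724 falls (5.32%) of at least 2-fold. Of the calls, 2724 rises (65.7% of the sgRNA2 rises and 63.1% of the sgRNA1 rises) and 2257 falls (56.8% and 56%) were shared, while 886 genes were called in opposite directions. The difference between the 2 responses still passed the test for 5820 genes (42.8%), 2836 (20.9%) more positive and 2984 (21.9%) more negative in sgRNA2 cells. Of these, 202 (1.49%) were positive and 586 (4.31%) negative by at least 2-fold. The fold changes had a Pearson r of 0.70 and a Spearman rho of 0.58 over 13601 genes.

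Hypoxia genes responded differently in the 2 guide lines: the difference was called negative for 30 of 30 genes, with a median of -1.0 against -0.04 for all genes. In sgRNA1 cells 14 of these genes rose and 9 fell, with a median of 0.10. In vehicle, 30 of 30 were higher in both sgRNA2 libraries than in both sgRNA1 libraries, where 43% of all genes were, and after IFN-gamma 15 of 30 were lower and 12 higher, where 37% and 36.2% of all genes were. Vegfa was at 50.2 and 52 CPM in sgRNA1 vehicle cells and 51.5 and 49.3 CPM after IFN-gamma, and its response differed by -1.93 ± 0.09 (edgeR adjusted p = 3.59e-11). Txnip was at 46.5 and 49.2 and then 68.9 and 72.4 CPM in sgRNA1 cells, with a difference of -3.22 ± 0.07 (edgeR adjusted p = 2.47e-15). Positive differences were called for 23 of 26 S phase genes, 27 of 30 ribosomal protein genes and 20 of 23 MYC and ribosome biogenesis genes. The last list was lower in both sgRNA2 libraries than in both sgRNA1 libraries for 22 of 23 genes in vehicle (36.8% of all genes) and 21 of 23 after IFN-gamma (37% of all genes). Among interferon lists, the difference was negative for 24 of 36 type I interferon-stimulated genes, 16 of 23 MHC class I genes and 10 of 18 GTPases. In vehicle, both sgRNA2 libraries lay above both sgRNA1 libraries for 30, 17 and 14 genes of these lists (43% of all genes). After IFN-gamma they lay above for 27, 15 and 10 (36.2% of all genes) and below for 5, 6 and 4 (37% of all genes).

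Single genes also responded differently in the 2 guide lines. Ccl7, a monocyte chemokine, rose from 1 and 7 counts to 231 and 305 in sgRNA2 cells, by 2.06 ± 0.52 more than in sgRNA1 cells (edgeR adjusted p = 0.00391); without the first vehicle library the difference was 1.22 (edgeR adjusted p = 0.0603). Prdm1, a transcriptional repressor of lymphocyte and epithelial differentiation, went from 4.56 and 3.8 to 1.5 and 0.51 CPM in sgRNA2 cells and from 0.302 and 0 to 1.64 and 1.14 CPM in sgRNA1 cells. Its arms moved in opposite directions in the lines, and the difference was -5.16 ± 0.81 (edgeR adjusted p = 5.69e-05). Ifi207, an interferon-inducible DNA-binding protein with close paralogs, went from 0.155 and 0.17 to 7.03 and 6.95 CPM in sgRNA2 cells, 2.55 ± 0.54 more than in sgRNA1 cells. Dhrs3, a retinaldehyde reductase, had a difference of -3.41 ± 0.48, and the unconventional myosin Myo7a one of -3.68 ± 0.93.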

How the data were processed

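Total RNA of 4T1 cells (1 ug a library) was made into Illumina TruSeq libraries, per the labels' protocols; the kit named there does not mark strand. The deposited table gives raw read counts per gene that the authors made; STAR 2.4.0, HTSeq, DESeq2 1.10 and the mm10 build are named, per the submitters' processing notes, and the annotation was not given in the sources used here. Groups were taken from the labels, 2 libraries each. From the counts, edgeR 4.0.16 (R 4.3.3) fitted 1 term for each of the 6 groups to all 12 libraries, with TMM scaling (factors 0.963 to 1.09) and quasi-likelihood tests on 6 residual degrees of freedom. Of 16283 genes, 13601 passed edgeR's expression filter (minimum count 10, minimum total 15) and held 99.965% of counts. Adjusted p-values are Benjamini-Hochberg over all tested genes, with calls below 0.05. The contrasts were IFN-gamma against vehicle in sgRNA2 cells and its difference from the responses of control and of sgRNA1 cells. CPM values use the TMM-scaled library sizes. The standard error of a fold change was derived from the test statistic and restates it. The script was tested on simulated data.

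Names were chosen by rule: the 12 largest rises and 12 largest falls among called genes that averaged 1 CPM or more and had arms that do not overlap, the 10 most positive and 10 most negative called genes of each difference, and the 8 genes of opposite sign with the largest smaller response. Members of 30 gene lists were named for the size of their change or for moving against their list; a few members are not reported here. The comparison, the lists and the hypoxia motif were chosen with earlier results of these data known. Gene positions are from GENCODE vM21 (GRCm38), which held 15941 of the names, and promoters from RefSeq (GRCm38.p6). Motif checks of the 100 largest rises and falls, the GTPases and the MYC list are void because fewer than 80% of their genes had a promoter in the table. Same-numbered libraries of a line deviated from their group means with correlations of -0.266 in control, 0.03 in sgRNA1 and -0.299 in sgRNA2 cells, so the numbers were not used as pairs. Alternatives were other scalings (RLE and upper quartile), no count filter, DESeq2 1.42.0, replicate blocks, a fit on the libraries compared alone and leaving out each library.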

Additional observations from a re-analysis of the deposited data

Results flagged for a closer look

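The IFN-gamma response of sgRNA2 cells differed from that of control cells for 4135 genes with a more positive and 4725 with a more negative response, and from that of sgRNA1 cells for 2836 and 2984 genes (edgeR interaction contrasts). The values below are such differences of log2 fold change for the leading genes of each comparison. For H2-Ab1, Tgtp2, Cfb, C1s2, Ccn5, Sectm1b, Gm28035, Gm2446 and Gm47939 a group held no count, so their fitted values depend on edgeR's prior count and are no bound.

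Against control cells, the most positive differences were 4.21 for Rrp12, 4.45 for the tRNA methyltransferase subunit Trmt61a, 4.04 for the nuclease Aen, 4.04 for the respiratory assembly factor Ndufaf4, 6.13 for the ubiquitin ligase adaptor Kbtbd8 and 4.09 for the transporter Slc16a6. The placental lactogen family gene Prl3d2 had 5.78, and the gene models Gm2446, Gm10163 and Gm49384 had 7.79, 7.16 and 4.67. The libraries of Gm2446 did not agree: 0 and 3.81 CPM in the 2 treated sgRNA2 libraries. Gm10163 and Gm2446 each rested on 1 library, since the sign changed without it.

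The most negative differences from control were -7.75 for H2-Ab1, -7.10 for Tgtp2, -6.11 for Ifi47, -6.35 for the complement factor Cfb and -6.76 for the complement protease C1s2. The secreted matrix protein Ccn5 also had -6.76, the serpin Serpinb8 -6.54 and Sectm1b -6.28, while the gene models Gm28035 and Gm43909 had -8.97 and -5.97. A negative difference did not always come with a lower end. Treated sgRNA2 cells averaged 13.31 CPM for H2-Ab1, 150.2 for Ifi47, 7.158 for Cfb and 11.04 for C1s2. Treated control cells averaged 9.687, 129.7, 6.756 and 8.112 CPM. The treated sgRNA2 mean was also higher for Ccn5, and lower for Tgtp2, Serpinb8, Sectm1b, Gm28035 and Gm43909. Without the second sgRNA2 vehicle library the difference for Sectm1b was -2.06 and was not called. Among genes with responses of opposite sign, the differences were -5.46 for Txnip, -4.92 for Pyroxd2, -4.76 for Vsir, -4.70 for Asb2, -5.27 for Aire and -5.11 for Tcp11l2.

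Against sgRNA1 cells, the most positive differences were mostly gene models and processed pseudogenes: 9.12 for Gm2446, 4.37 for Gm6565, 3.67 for Gm7887, 3.33 for Gm28438, 2.53 for Gm49384, 2.17 for Rpl27-ps3 and 2.13 for Gm8355. The named genes were Ifi207 (2.55), Ccl7 (2.06) and Ccnb1ip1 (1.93). Reads of pseudogenes can be shared with their parent genes, and treated sgRNA2 libraries differed for Rpl27-ps3 (92.5 and 17.5 CPM). The calls for Gm2446, Rpl27-ps3 and Gm8355 were each lost without at least 1 of the libraries compared.

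The most negative differences from sgRNA1 were -7.34 for Gm47939, -5.16 for Prdm1, -4.53 for Ifit3b, -4.35 for Gm6361, -4.09 for Aire, -3.74 for Mab21l3, -3.68 for Myo7a, -3.41 for Dhrs3, -3.24 for Il1bos and -3.22 for Txnip. Ifit3b has a near-identical copy, Ifit3, and no source used here says how reads shared between copies were counted. Il1bos overlaps Il1b in part on the other strand, and reads of the overlap cannot be assigned to either gene without strand. The call for Gm47939 was likewise lost without single libraries, and Gm6361 read 0 and 2.98 CPM in the treated sgRNA2 libraries.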

How the results depend on the processing

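The counts of called genes stayed within 1.5 times the main counts under every alternative run. For the sgRNA2 response, its difference from control and its difference from sgRNA1, DESeq2 called 7227, 8159 and 4901 genes and upper quartile scaling raised the share of falls, as given with the counts. With the replicate number as a block the counts were 7849, 8607 and 5500, of which 7782, 8557 and 5442 were main calls of the same sign. A crossed block, added after seeing the data because the correlations within control and sgRNA2 cells were negative, gave 8179 for the response and 8890 for the difference from control. Leaving out 1 library at a time gave 3777 to 4334 rises and 3105 to 3431 falls in sgRNA2 cells, 3912 to 4360 positive and 4105 to 4480 negative differences from control, and 2462 to 2744 and 2458 to 2760 from sgRNA1. Values that reversed among named genes, with the range over single omissions, were these: Gm10163 against control, -5.604 (without the first control vehicle library) to 9.896; Gm2446 against control, -0.5403 (without the second treated sgRNA2 library) to 8.75. Uncalled values also crossed 0: Cebpd against sgRNA1 at -0.25 to 0.06404, Ifngr2 in sgRNA2 cells at -0.09822 to 0.1129 and, with upper quartile scaling, Jak2 at -0.02019. The cause was not tested. With DESeq2, Gm2446, Gm10163, Rpl27-ps3, Gm47939 and Gm6361 lost calls of a difference (adjusted p of 0.0772 to 0.211), and the small responses of Rpl30 and Pfkfb3 were not called with DESeq2 or upper quartile scaling; that of Rpl30 was not called on the 4 sgRNA2 libraries alone. With 2 libraries a group, a left-out library leaves its arm with 1, assumed to vary like the other groups.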
